A study of Mus musculus with 8 samples.

Results

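The genes described here are the retinoid receptor and binding protein genes Rara, Rarb, Rarg, Rxra, Rxrb, Crabp1 and Crabp2, chosen by name and not by their values, 7 of 17488 genes with a measured level. Their RNA levels were measured by sequencing in neuroblastomas of 8 homozygous TH-MYCN mice, 1 whole tumour each, in which a human MYCN transgene is driven by the tyrosine hydroxylase promoter, so that both groups carry it and tumours arise in cells of the sympathetic lineage. Dosing began at about 6 weeks of age, at tumour volumes of 200 to 300 mm3. The treated group (n = 4 animals) received 2 doses of 5 mg/kg panobinostat 24 h apart, the control group (n = 4 animals) received vehicle, and tumours were taken 4 h after the second dose. Panobinostat is a hydroxamate inhibitor of the zinc-dependent histone deacetylases. Each tumour was taken with its stroma, so fewer cells of a type and less RNA per cell cannot be told apart in any value below.

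Retinoic acid, made from vitamin A, enters the nucleus and binds the retinoic acid receptors RARα, RARβ and RARγ (genes Rara, Rarb and Rarg). Each RAR pairs with a retinoid X receptor (RXR), and the pair sits on DNA at repeated hexamers, where it holds corepressors with histone deacetylase activity until ligand brings coactivators in their place. CRABP1 and CRABP2 are small cytosolic proteins that carry retinoic acid, CRABP2 towards the receptors. Retinoic acid drives differentiation of neuroblastoma cells in culture, and isotretinoin is given to patients with high-risk disease.

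Upstream sequence of the members was read first, since the repeated hexamer is the element through which the receptors act. Of the 7 members, 6 matched RefSeq start sites (GRCm38.p6, the assembly of mm10), and the 250 bases before each start were searched on both strands. The hexamer was accepted as AGGTCA, in the variant spelling AGTTCA, as found in retinoid elements, or in the further spellings GGTTCA and, last, GGGTCA. A hit was 2 hexamers in the same direction with 5, 2 or 1 bases between them (direct repeats DR5, DR2 and DR1). The only such repeat among the members lay before Rarb, a DR5 from 53 to 37 bases before the RefSeq start, and a DR5 was found in 0.0884% of 32817 windows of that length. It is shown with 6 bases on either side (chr14:16575507-16575535, minus strand), with the repeat in capitals. These bases lie before the RefSeq start but inside the first exon of longer GENCODE models of Rarb.
Rarb: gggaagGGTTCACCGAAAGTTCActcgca

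The windows before Rarg, Rxrb and Crabp1 held none of these repeats, and they are shown because these genes had the clearest changes. Capitals mark the GC box GGGCGG on either strand, which 32.7% of all windows hold. Crabp1 had 5 GC boxes in its window, and the window of the more upstream Rarg start, shown here, had 3. Rarg and Rxrb each have another RefSeq start that is not shown, whose windows held 0 and 3 GC boxes. Members not shown held such boxes too: Rara 4, 4, 0 and 1 in the windows of its 4 starts, and Rxra 3 and 0 at its 2. Rara is not among the members found to change below. For Rxrb only the 129 bases outside annotated exons of its divergent neighbour Slc39a7 are given. The Rarg sequence is chr15:102257523-102257772 (minus strand), that of Rxrb chr17:34031683-34031811 (plus strand) and that of Crabp1 chr9:54764498-54764747 (plus strand).
Rarg: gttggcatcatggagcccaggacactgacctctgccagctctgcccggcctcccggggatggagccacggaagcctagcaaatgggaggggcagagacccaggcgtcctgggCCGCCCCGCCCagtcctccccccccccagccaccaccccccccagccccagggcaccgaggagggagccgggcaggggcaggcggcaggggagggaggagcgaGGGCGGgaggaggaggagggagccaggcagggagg
Rxrb: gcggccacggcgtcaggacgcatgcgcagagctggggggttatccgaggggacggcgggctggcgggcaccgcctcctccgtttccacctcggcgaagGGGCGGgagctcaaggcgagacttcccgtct
Crabp1: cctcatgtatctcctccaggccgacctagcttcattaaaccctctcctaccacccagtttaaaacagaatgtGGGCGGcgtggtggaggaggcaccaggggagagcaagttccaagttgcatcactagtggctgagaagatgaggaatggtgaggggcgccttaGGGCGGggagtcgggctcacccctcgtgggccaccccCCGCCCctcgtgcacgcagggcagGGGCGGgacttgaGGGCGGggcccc

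Libraries held 22055658 to 23830026 reads over the listed genes with vehicle and 18664066 to 22235545 with panobinostat, and 1 CPM (the usual count scaled to the library's depth) was 19.3 to 22.6 reads. Defining genes of the noradrenergic tumour (10 markers, among them Hand2, Th and Dbh) were read in every group, summing to 2824 to 3367 CPM with vehicle and 1389 to 1923 with panobinostat. In the same treated libraries 11 of 12 macrophage markers and 11 of 12 fibroblast and mural markers were higher. So were 7 of 10 Schwann cell markers and 8 of 9 adipocyte markers, against 31.2% of all tested genes. Without panobinostat libraries 3 and 4 these counts were 12, 10, 3 and 5, where 48.4% of all tested genes were called in either direction. Only 3 of 10 endothelial markers were higher, and their sums overlapped (128 to 589 CPM with vehicle, 371 to 587 CPM with panobinostat). Summed macrophage markers ran from 666.3 to 1264 CPM with vehicle and from 3192 to 5696 with panobinostat. Summed fibroblast and mural markers ran from 1775 to 5061 CPM and from 8638 to 15670 CPM, so neither of these ranges overlapped between groups. The 9 adrenal cortex genes summed to 9.12 to 11.3 CPM with vehicle and to 42.5 to 2969 CPM with panobinostat. Of these, 3 fell below the filter of 1 CPM in 4 libraries. All 6 tested were higher (median log2 change 7.92). A gene low with vehicle can pass that filter only through the treated libraries, so the filter itself favours such a count. Pancreas genes summed to 7.45 to 14.5 CPM with vehicle and to 15.5, 714, 19.7 and 4314 CPM in panobinostat libraries 1 to 4. Liver genes summed to 7.79 to 62.4 CPM with vehicle, and to 155, 157, 1025 and 9882 CPM in panobinostat libraries 1 to 4. For kidney genes the sums were 0.618 to 3.33 CPM with vehicle and 4.08, 8.55, 789 and 4.53 CPM in panobinostat libraries 1 to 4. Of the markers analysed in these lists, none was at 0 in all libraries of a group, apart from Cyp11b2 of the adrenal cortex list with vehicle. Ins2 and Gcg of the pancreas list and 5 of 9 kidney genes were not analysed here.

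All 7 members passed the low-value filter, and 5 changed with panobinostat: Rarg, Rxra, Crabp1 and Crabp2 rose and Rxrb fell, while Rara and Rarb made no call. A change means an adjusted p under 0.05 (limma, Benjamini-Hochberg over 16157 genes), a threshold that 63.7% of all tested genes passed, so a count of 5 of 7 is near the background. The 4 treated and 4 vehicle values did not overlap for Rarg, Rxrb, Crabp1 and Crabp2, as was the case for 59.7% of tested genes. Tested against a change of 1.5-fold, 3 members (Rarg, Crabp1 and Crabp2) passed, a test that 30.9% of all genes passed. Without panobinostat libraries 3 and 4, Rxra lost its call and 4 of 7 members changed, against 48.4% of all genes. The median log2 change of the members was 0.46, against -0.02 over all tested genes. Changes below are log2 differences of CPM with 0.5 reads added, panobinostat minus vehicle.

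**Figure D1:**
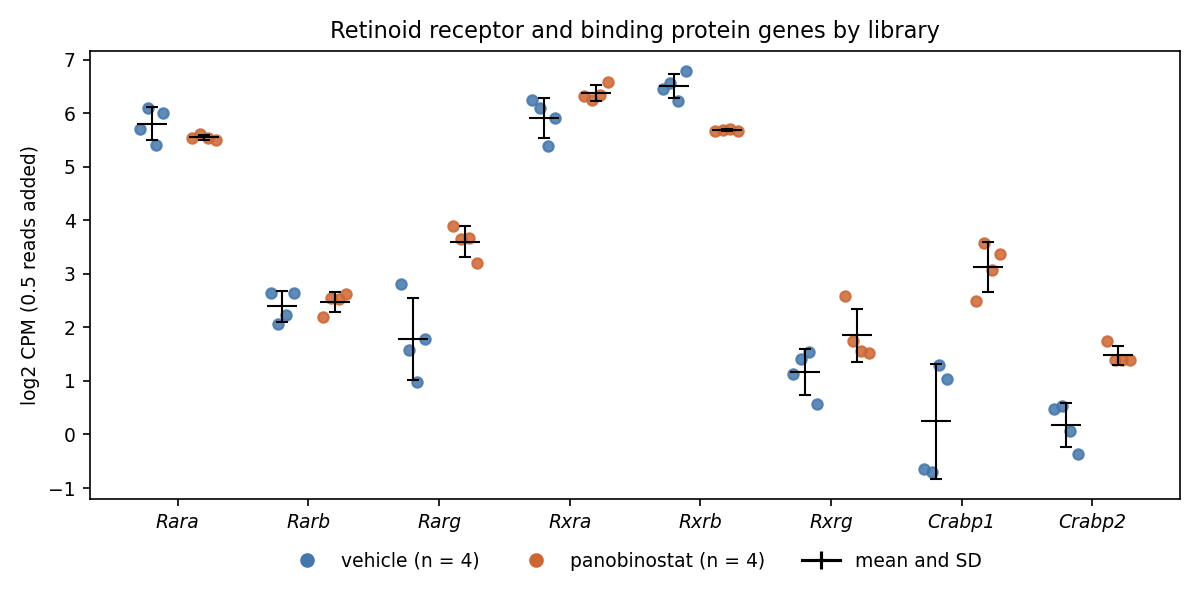
Level of the 7 members and Rxrg in each library, in log2 CPM with 0.5 reads added, 4 vehicle (blue) and 4 panobinostat (orange) libraries per gene, with mean and SD. The Rxrb values with panobinostat lie within a narrow band below all vehicle values, and Crabp1 shows a low and a high pair of vehicle libraries.

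Among the RARs, Rarg rose and the others made no call. Rarg encodes RARγ, the main RAR of skin and of cartilage, and lies on chromosome 15 (102234938 to 102257517, mm10, minus strand; ENSMUSG00000001288). It was read at 7.02, 2.94, 1.95 and 3.40 CPM in vehicle libraries 1 to 4 and at 14.7, 12.5, 12.7 and 9.17 CPM in panobinostat libraries 1 to 4. Every treated library lay above every vehicle library, and vehicle library 1 stood above the other vehicle libraries. The log2 change was 1.82 (SE 0.36, 3.52-fold, adjusted p = 0.00183, limma), based on 44 to 159 reads per vehicle library and 180 to 329 per treated library.

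Rara, on chromosome 11 (98927818 to 98974942, plus strand; ENSMUSG00000037992), encodes RARα, which is expressed in most tissues. Its CPM values were 52.0, 68.7, 42.6 and 64.1 with vehicle and 46.5, 49.1, 46.1 and 45.4 with panobinostat. The treated values fell inside the vehicle range and were much closer together. The change was -0.26 (SE 0.15, adjusted p = 0.156, limma), and its 95% interval ran from -0.59 to 0.08. Rara fell with libraries centred on their medians (-0.37), with library weights (-0.37) and without vehicle library 3 (-0.39).

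Rarb encodes RARβ, whose DR5 shown above is the classical retinoic acid response element and makes Rarb itself a retinoic acid target in many cells. It lies on chromosome 14 (16430839 to 16819156, minus strand; ENSMUSG00000017491). Vehicle libraries read 6.23, 4.17, 4.66 and 6.19 CPM and panobinostat libraries 4.57, 5.80, 5.74 and 6.11 CPM. The groups overlapped almost fully, with a change of 0.08 (SE 0.21, adjusted p = 0.755, limma, 95% interval -0.39 to 0.55). Its sign turned with median centring (-0.038), with quantile normalization (-0.45), without vehicle library 2 (-0.030) and without panobinostat libraries 3 and 4 (-0.022). Of the merged Rarb exons, 34.1% (1793 bases) are shared with exons of Top2b on the opposite strand, and whether counting used strand is not given in the sources used here. Top2b, which encodes DNA topoisomerase IIβ, held 4947 to 9208 reads per vehicle library and 3385 to 4290 per panobinostat library, a fall of 0.88 on the log2 scale, and any part of its reads in the Rarb values was not tested.

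Of 28 genes with a DR5 in the same upstream window 5 were tested, Rarb among them, and they are given as a description only. Blvrb (2.72), Cfap45 (4.77) and Ppbp (2.34) rose, Syndig1 fell (log2 change -2.10) and Rarb made no call. Since 63.7% of all tested genes were called, 1 gene of 5 without a call does not set Rarb apart.

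Both ubiquitous RXR genes changed, in opposite directions. Rxrb, on chromosome 17 (34031812 to 34038399, plus strand; ENSMUSG00000039656) within the major histocompatibility region, encodes RXRβ. Its CPM values were 87.3, 94.6, 75.3 and 110.2 with vehicle and 51.1, 51.6, 52.2 and 51.0 with panobinostat. All treated libraries lay below all vehicle libraries and within a narrow band, with SDs of 0.02 (panobinostat) and 0.23 (vehicle) on the log2 scale. Rxrb fell by 0.82 on the log2 scale (SE 0.12, adjusted p = 2.67e-04, limma), on 996 or more reads in each library. It kept this call under every alternative except the test against a 1.5-fold change (adjusted p = 0.103, limma).

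Rxra, on chromosome 2 (27676440 to 27762957, plus strand; ENSMUSG00000015846), encodes RXRα, the partner of many nuclear receptors in liver and other tissues. It was read at 76.1, 68.2, 42.0 and 60.3 CPM with vehicle and at 79.7, 76.0, 80.6 and 96.0 CPM with panobinostat. The groups overlapped narrowly, since vehicle library 1 lay just above panobinostat library 2. The change of 0.46 (SE 0.18, adjusted p = 0.0456, limma) was near the threshold. The call was lost without any one of vehicle libraries 3 and 4 and panobinostat libraries 1 to 4 (adjusted p from 0.0618 to 0.115, limma), and without panobinostat libraries 3 and 4 together the change was 0.37 (adjusted p = 0.231). It was also lost with median centring (0.34), library weights (0.32) and no variance trend, and without vehicle library 3 the change was 0.29.

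Rxrg, the RXR gene of muscle and of parts of the nervous system, is no member but completes the family. It held 31 to 65 reads per vehicle library and 56 to 133 per panobinostat library, with a change of 0.69 (SE 0.32, adjusted p = 0.0872, limma, 95% interval -0.04 to 1.41). Panobinostat library 1 held the 133 reads and the others at most 64.

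The largest change among the members was that of Crabp1. It lies on chromosome 9 (54764748 to 54773110, plus strand; ENSMUSG00000032291), and its product binds retinoic acid in the cytosol, among other places in migrating neural crest cells of the embryo. Vehicle libraries held 14, 12, 55 and 43 reads (0.618, 0.588, 2.44 and 2.03 CPM) and panobinostat libraries 125, 229, 176 and 203 reads (5.60, 11.9, 8.41 and 10.3 CPM). Vehicle libraries thus fell into a low pair and a higher pair, and the lowest treated library was above both. The change was 2.88 (SE 0.50, 7.37-fold, adjusted p = 8.75e-04, limma), higher than the change of 97.0% of tested genes. It ranged from 2.10 with 1 CPM added to each value to 3.46 with library weights.

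Crabp2 was read at low levels in every library. It lies on chromosome 3 (87948666 to 87953376, plus strand; ENSMUSG00000004885). Its reads numbered 31, 29, 23 and 16 with vehicle and 74, 50, 54 and 51 with panobinostat. No treated library came near the vehicle range, and panobinostat library 1 (3.32 CPM) stood above the other treated libraries (2.58 to 2.60 CPM). The change was 1.30 (SE 0.27, 2.46-fold, adjusted p = 0.00245, limma). Quantile normalization gave a smaller change of 0.70 (adjusted p = 0.0189).

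**Figure D2:**
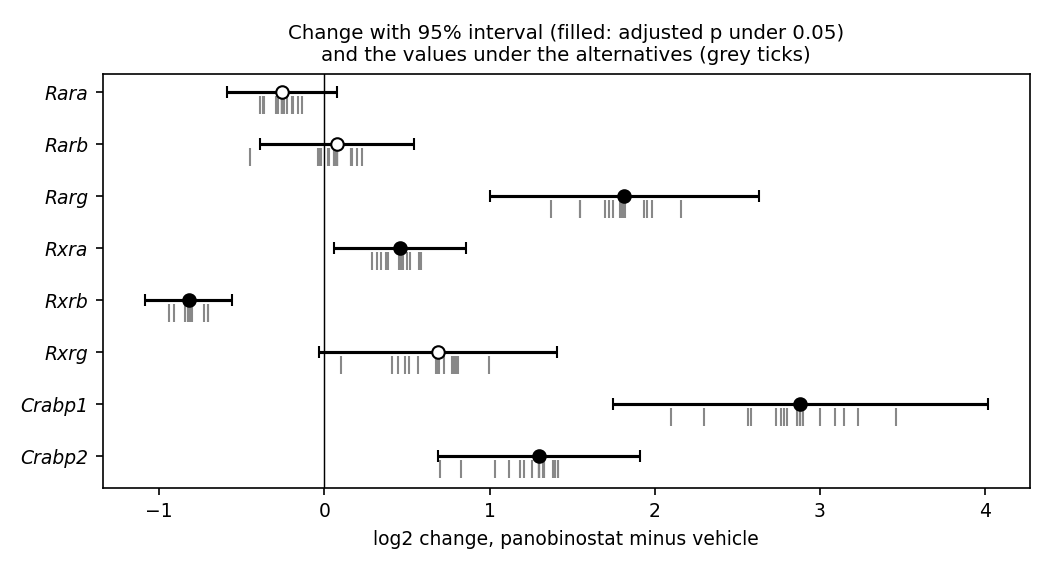
Log2 change of each gene, panobinostat minus vehicle, with its 95% interval from limma over 8 libraries (filled circles: adjusted p under 0.05) and the values under the alternatives as grey ticks. The ticks of Rarg, Crabp1, Crabp2 and Rxrb stay on 1 side of 0, those of Rarb lie on both sides.

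Levels of different genes were compared only as CPM per kilobase of merged exon. With vehicle Rxrb led at 23.1 ± 3.67 CPM per kilobase (SD, n = 4), above Rara at 13.0 ± 2.71 and Rxra at 11.3 ± 2.68, whose ranges overlapped each other but not that of Rxrb. The others followed at 1.77 ± 1.19 for Crabp1, 1.01 ± 0.201 for Rarb, 0.899 ± 0.519 for Rarg and 0.863 ± 0.237 for Crabp2, and neighbours in this order did not differ beyond their ranges. With panobinostat Rxra led at 15.2 ± 1.62 CPM per kilobase, clear of the range of Rxrb (12.9 ± 0.139). Crabp1 then stood at 11.3 ± 3.37 and Rara at 10.7 ± 0.368, and the ranges of Rxrb, Crabp1 and Rara overlapped in turn. The wide Crabp1 range also overlapped that of Rxra, with a highest Crabp1 value of 14.8 and a lowest Rxra value of 13.9 CPM per kilobase. Rarg (2.88 ± 0.541) and Crabp2 (2.10 ± 0.274) overlapped each other, and Rarb was last at 1.06 ± 0.129.

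A scaling factor common to all genes of a library cancels in the ratio of paralogs, and 5 log2 ratios were tested by a two-sided exact permutation test over 70 assignments. Rxrb minus Rxra was 0.20, 0.47, 0.84 and 0.87 with vehicle and -0.64, -0.56, -0.63 and -0.91 with panobinostat. Every treated value thus lay below every vehicle value, a difference of -1.28 (exact permutation p = 0.0286, adjusted p = 0.0476 over 5 ratios). These ratios are not scaled to gene length, so a ratio of 0 does not mean equal levels. Rarg minus Rara went from -4.02 ± 0.77 to -1.95 ± 0.27 (SD, n = 4), a difference of 2.07, and Rarg minus Rarb from -0.61 ± 0.60 to 1.13 ± 0.45, a difference of 1.74. Both had exact permutation p = 0.0286 and adjusted p = 0.0476, the smallest that this design and family gave.

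Crabp1 and Crabp2 were not shown to change unequally. Crabp2 minus Crabp1 was 1.12, 1.24, -1.24 and -1.40 with vehicle and -0.75, -2.18, -1.70 and -1.98 with panobinostat. The vehicle libraries fell into a high and a low pair, and the difference of -1.58 did not pass (exact permutation p = 0.114, adjusted p = 0.143). For Rarb minus Rara the difference was 0.34 (exact permutation p = 0.171, adjusted p = 0.171).

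The make-up of each family was followed as the share of its summed CPM per kilobase. Rara held 87.1 ± 4.47% of the RAR level with vehicle and 73.2 ± 2.04% with panobinostat (SD, n = 4), and Rarg 6.02 ± 3.45% and 19.6 ± 3.07%. Rarb held 6.91 ± 1.60% and 7.23 ± 1.10%. In the RXR family the share of Rxra was 31.7 ± 4.87% with vehicle and 51.0 ± 3.18% with panobinostat, and that of Rxrb 65.4 ± 4.76% and 43.5 ± 2.38%. Groups did not overlap for Rara, Rarg, Rxra and Rxrb, and each had exact permutation p = 0.0286, but with 7 shares tested the adjusted p was 0.05, which is not under the threshold. The Crabp1 share of the CRABP level was 42.7, 40.6, 79.8 and 81.6% with vehicle and 73.6, 88.3, 84.3 and 86.8% with panobinostat (exact permutation p = 0.143, adjusted p = 0.167).

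Sums over each family were looked at after the shares, outside the tests laid down for these genes. The RAR sum was 11.1 to 17.2 CPM per kilobase with vehicle and 13.7 to 15.3 with panobinostat, so the treated range lay inside the vehicle range. The RXR sum was 35.4 ± 5.12 with vehicle and 29.8 ± 1.41 with panobinostat (SD, n = 4), with ranges that overlapped. The CRABP sum was 1.81 to 3.81 CPM per kilobase with vehicle and 9.49 to 16.8 with panobinostat. None passed when adjusted over the 3 sums, with two-sided exact permutation p = 0.943 (RAR), 0.143 (RXR) and 0.0286 (CRABP), and adjusted p = 0.943, 0.214 and 0.0857.

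**Figure D3:**
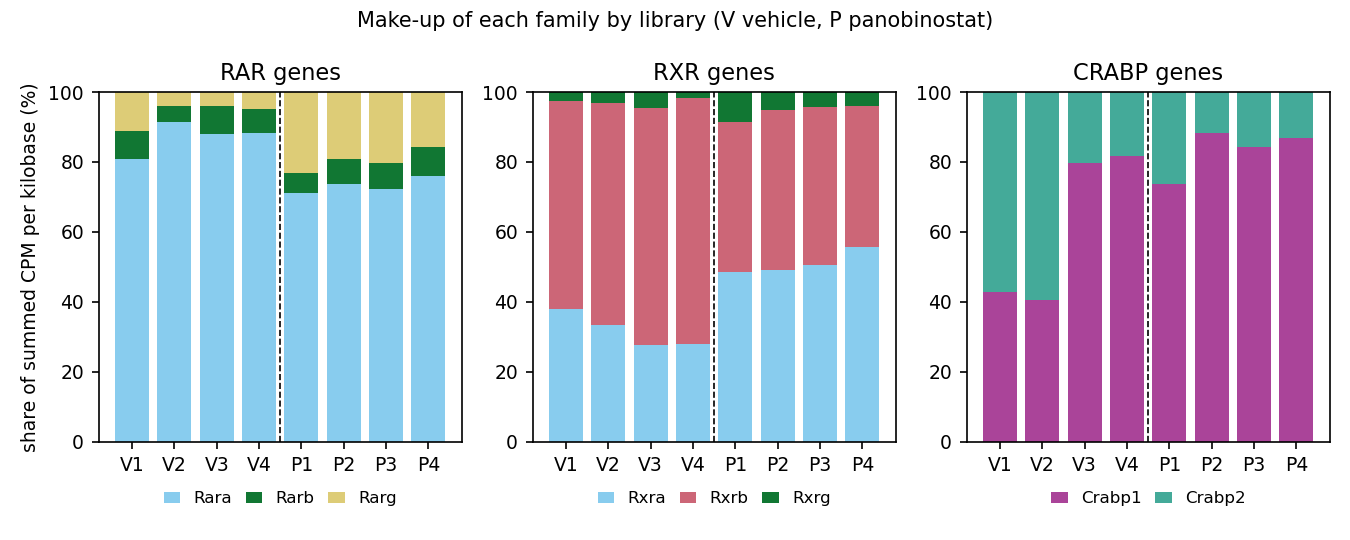
Share of each gene in the summed CPM per kilobase of its family, in percent, for vehicle libraries V1 to V4 and panobinostat libraries P1 to P4. The Rxra share spans 27.6 to 37.8% in the vehicle group and 48.6 to 55.5% after treatment, and the Rarg share rises from at most 11.2% to at least 15.7%.

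Values of Rarg and Crabp1 were set beside summed markers of other cells, pairs that were picked out after their values were seen. Rarg was highest in vehicle library 1 and lowest among treated libraries in panobinostat library 4. Summed fibroblast and mural markers were 5061, 2295, 1805 and 1775 CPM in vehicle libraries 1 to 4 and 15670, 14371, 12689 and 8638 CPM in panobinostat libraries 1 to 4. The libraries at those extremes of Rarg were also at the extremes of the marker sum, but vehicle library 4, with the next highest vehicle Rarg level (3.40 CPM), had the lowest sum. Crabp1 was low in vehicle libraries 1 and 2, where Schwann cell markers summed to 162 and 187 CPM, and higher in libraries 3 and 4, at 255 and 295 CPM. Among treated libraries Crabp1 was lowest in library 1 (Schwann sum 128 CPM) and highest in library 2 (493 CPM). Panobinostat library 1 held a lower Schwann sum than any vehicle library, and a Crabp1 level (5.60 CPM) above all of them. The part of these cells in either change was not tested.

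**Figure D4:**
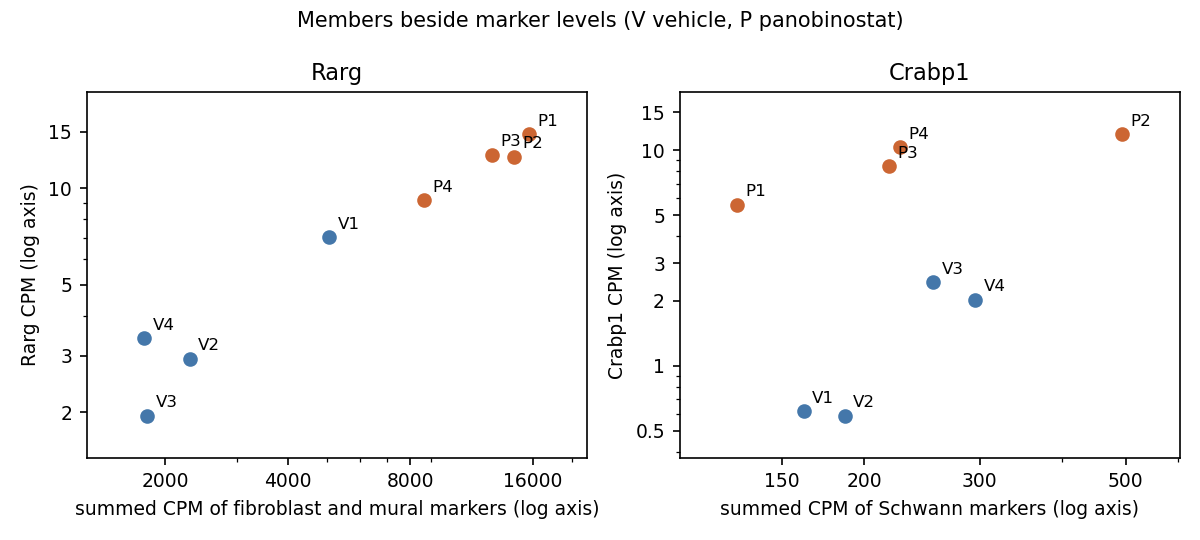
CPM of Rarg against summed CPM of 12 fibroblast and mural markers (left), and CPM of Crabp1 against summed CPM of 10 Schwann cell markers (right), all on log axes, 1 point per library (V vehicle, P panobinostat). Rarg and its marker sum are both higher in all 4 treated libraries, while the Schwann sums of the groups overlap.

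By the distance of mean-centred log2 profiles over the 8 libraries, the genes nearest to Rxrb were Isg20l2 and Ncaph2 (root mean square difference 0.03 and 0.04). Nearest to Rarg were Acvrl1 (0.09) and Selplg (0.13), and to Rxra Tmem192 (0.09) and Sgpp1 (0.10). Crabp2 lay nearest to Slc26a2 and Efr3a (both 0.10). For Crabp1 the nearest genes were Myo1a (0.21) and Ngfr (0.22). These larger distances are not scaled to each gene's spread over the 8 libraries, which was widest for Crabp1 (SD 1.61, against 0.34 for Rxra).

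Genes that take up vitamin A and make or break down retinoic acid mostly rose. Of 21 tested genes of this list 12 rose and 4 fell, with a median log2 change of 1.25, against 31.2% higher and 32.4% lower over all tested genes. Without panobinostat libraries 3 and 4 the counts were 10 and 2, where 48.4% of all tested genes were called in either direction. The 3 retinaldehyde dehydrogenase genes Aldh1a3, Aldh1a2 and Aldh1a1, whose enzymes make retinoic acid, rose. Their changes were 2.54 (SE 0.24), 1.69 (SE 0.35) and 2.93 (SE 0.84). Of the same list, and named after their values were seen, Aldh1a7 rose by 3.83 (SE 0.63) and Aldh8a1 fell below the filter. Aldh8a1 held 1 to 9 reads per vehicle library and 4, 7, 204 and 457 reads in panobinostat libraries 1 to 4. Aldh1a3 went from 31 to 51 reads per library with vehicle to 191 to 359 with panobinostat. Aldh1a1 varied most, from 21 to 240 reads and from 235 to 1374 reads, and its call was lost with library weights (1.63, adjusted p = 0.0743, limma) and without panobinostat libraries 3 and 4 (2.90, adjusted p = 0.0588).

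Genes of earlier steps changed in both directions. Rdh10, which oxidises retinol, rose by 1.10 (SE 0.22), and Dhrs3, which reduces retinaldehyde back to retinol, by 1.71 (SE 0.27). Named after their values were seen, the retinol dehydrogenase genes Rdh14 (-1.08, SE 0.21) and Rdh13 (-0.57, SE 0.16) fell and Rdh5 rose by 1.49 (SE 0.34), while Rdh11, Rdh12 and Dhrs4 made no call. Lrat, which esterifies retinol for storage and marks hepatic stellate cells in liver, had 1 to 5 reads per vehicle library and 32 to 81 per treated library. Bco2, a carotenoid-cleaving oxygenase gene, had 2 to 9 and 25 to 57 reads.

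Rbp4, the plasma retinol carrier made by liver and fat, rose by 3.85 (SE 0.92), with 20 to 51 reads per vehicle library and 159, 146, 448 and 3643 in panobinostat libraries 1 to 4. The last of these libraries also held the highest sum of liver genes, and the part of liver RNA was not tested. Against this direction Stra6, the receptor that takes up retinol from RBP4, fell by 1.40 on the log2 scale (SE 0.27), from 77 to 123 reads to 25 to 47. Fabp5, whose protein can carry retinoic acid towards PPARδ, fell by 0.44 (SE 0.10), a change of -0.12 with quantile normalization that made no call. Cyp26b1, which degrades retinoic acid, made no call (0.71, SE 0.61, adjusted p = 0.329, limma), with 12 to 84 reads and 18 to 74 reads. Cyp26a1 and Cyp26c1 were not analysed here.

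**Figure D5:**
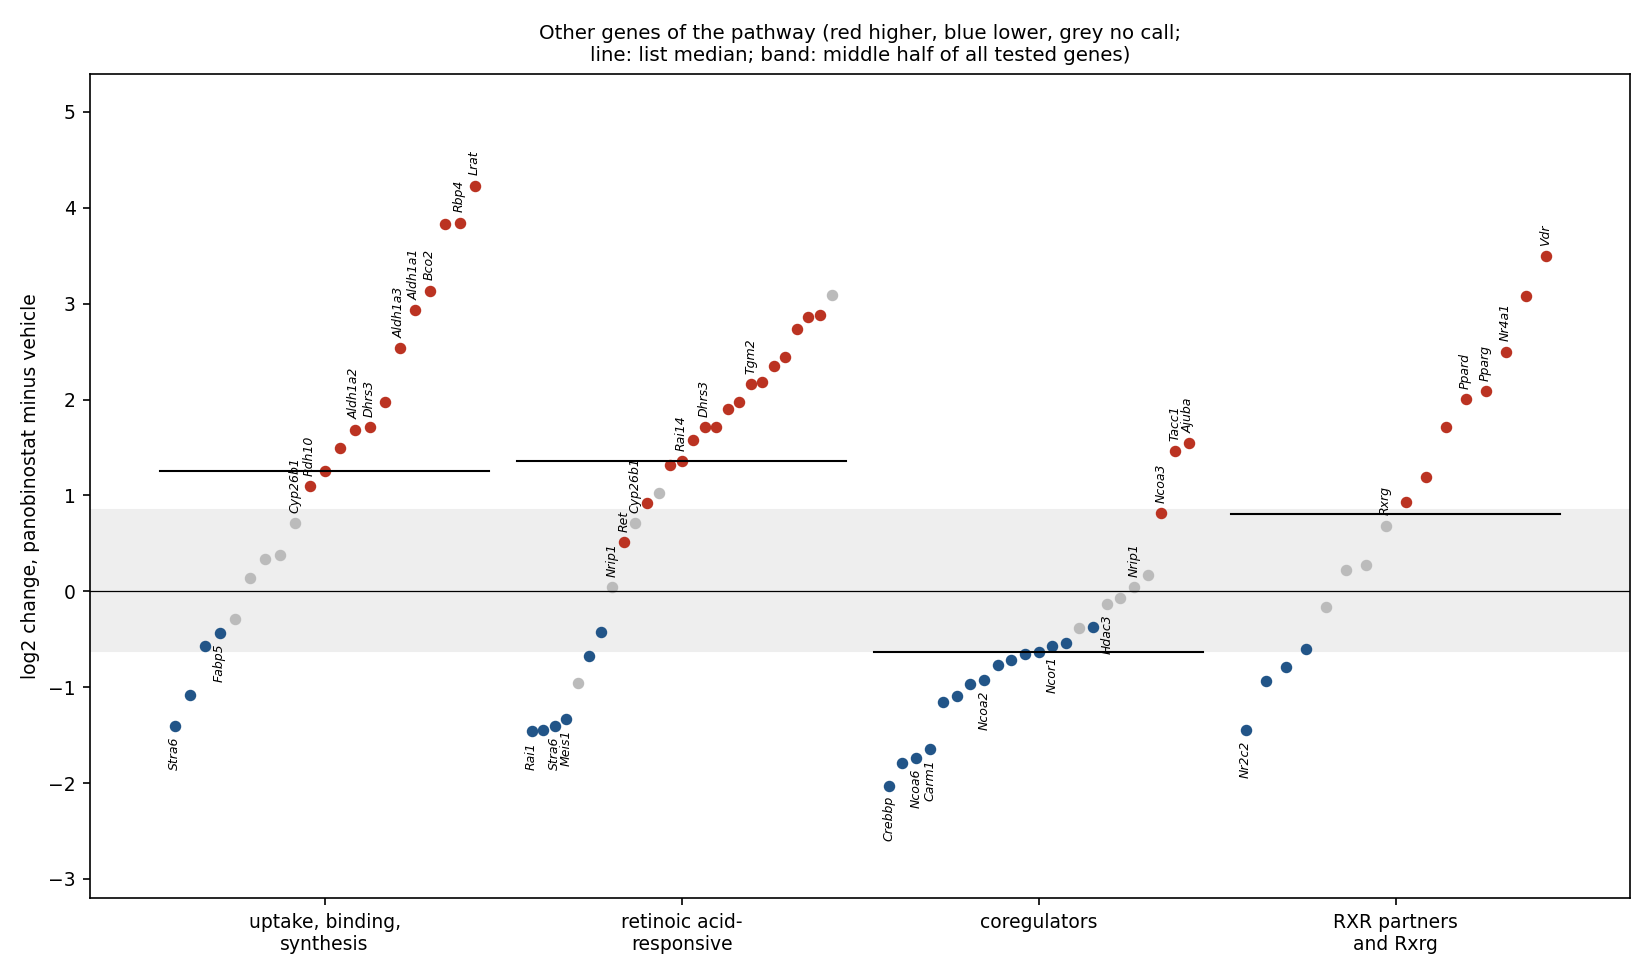
Log2 change, panobinostat minus vehicle, of each tested gene in the 4 lists of the pathway (red higher, blue lower, grey no call), with symbols at the genes named in the text. Black lines mark the list medians of 1.25, 1.36, -0.63 and 0.81, and the grey band spans the middle of all tested genes from the lower to the upper quartile.

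Genes often reported to respond to retinoic acid also leaned upward: 16 of 27 rose and 6 fell, and the median was 1.36 (31.2% and 32.4% of all tested genes). Leaving out panobinostat libraries 3 and 4 gave 14 and 5, with 48.4% of all tested genes called in either direction. Genes such as Dhrs3, Stra6 and Cyp26b1 stand in this list and in the one before. Tgm2, which encodes tissue transglutaminase, rose by 2.16 (SE 0.14, adjusted p = 6.01e-06, limma), from 1601 to 1772 reads per vehicle library to 5435 to 8645. Rai14 rose by 1.36 (SE 0.18), while Rai1, a chromatin-associated gene induced by retinoic acid in cell lines, fell by 1.46 (SE 0.11). Ret, a receptor tyrosine kinase gene, rose by 0.52 (SE 0.18), but this rested on 6 of the libraries: dropping any one of vehicle libraries 1 to 3 or panobinostat libraries 2 to 4 ended the call (adjusted p from 0.0507 to 0.0920, limma). Meis1, a homeobox gene, fell by 1.34 (SE 0.20) and was named after its value was seen.

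Coregulator genes mostly fell: 15 of 23 were lower, 3 were higher, and the median was -0.63 (32.4% lower and 31.2% higher over all tested genes). Without panobinostat libraries 3 and 4 the counts were 13 and 3, where 48.4% of all tested genes were called in either direction. Crebbp changed by -2.03 (SE 0.12) and Ncoa6 by -1.74 (SE 0.09), both coactivator genes. Carm1, an arginine methyltransferase gene, changed by -1.65 (SE 0.13) and Ncoa2, a p160 coactivator gene, by -0.93 (SE 0.09). The corepressor gene Ncor1 fell by 0.57 (SE 0.08) and made no call with quantile normalization (-0.23). Hdac3, a deacetylase bound by this corepressor, made no call (-0.13, SE 0.10), fell with median centring (-0.25) and was at 0.10 with quantile normalization. Nrip1, a ligand-dependent corepressor gene, stood at 0.04 (SE 0.19, adjusted p = 0.859, limma). Ncoa3 (0.81, SE 0.08), Tacc1 (1.46, SE 0.16) and Ajuba (1.54, SE 0.32), named after their values were seen, were the 3 that rose.

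Receptors that pair with RXR or share its sites changed in both directions: 8 of 16 rose and 4 fell (31.2% and 32.4% over all tested genes). The counts were 5 and 3 without panobinostat libraries 3 and 4, where 48.4% of all tested genes were called in either direction. Vdr, the vitamin D receptor gene, rose by 3.50 (SE 0.43), with 14 to 53 reads in vehicle and 172 to 446 in treated libraries. Ppard rose by 2.00 (SE 0.14) and the orphan receptor gene Nr4a1 by 2.50 (SE 0.27). Pparg, the receptor of fat cell differentiation, rose by 2.09 (SE 0.54) in libraries whose adipocyte markers summed to 1216 to 1801 CPM, against 49.6 to 810.0 CPM with vehicle, with a change of 2.03 (adjusted p = 0.0543, limma) when panobinostat libraries 3 and 4 were both removed. Nr2c2, the testicular receptor 4 gene, fell by 1.45 (SE 0.08).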

How the data were processed

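RNA from 8 tumours was made into TruSeq libraries, per the labels. CASAVA 1.8.2, the aligner TopHat2, the counter HTSeq, limma and the build mm10 are listed in the submitters' processing notes, without settings. Annotation, filter and strand: not given in the sources used here. The deposited table holds 1 log2 value per gene and library (log2 CPM of an effective library size, 0.5 reads added). Undoing that scale returned whole reads, within 0.001 of a read, for 100% of values. The 16157 of 17488 genes that reached 1 CPM in 4 or more libraries entered limma 3.58.1 (R 4.3.3; variance trend, 2 groups, no covariate), two-sided, with Benjamini-Hochberg adjustment and a threshold of 0.05. The fit was tested on simulated data. Symbols, coordinates and merged exon lengths come from GENCODE M21, matched by identifier (17228 of 17488). Ratios and shares were tested by exact permutation over 70 assignments.

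Named were the members, Rxrg, the 4 members of each pathway list with the smallest adjusted p, 17 further retinoid genes, and the 2 nearest genes of each called member; some of these are not reported here. Members, lists and alternatives were chosen with earlier results of these data known. Alternatives were other filters, variance settings, scalings, weights, 1 CPM added, a test against a 1.5-fold change, and leaving out libraries. Replicate numbers only name samples. The labels hold no litter, cohort or processing date, so such a difference between groups and treatment cannot be told apart.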

Additional observations from a re-analysis of the deposited data

Results flagged for a closer look

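In each group of 4, a library was singled out where its gap to the nearest other library passed the 95% critical value of Dixon's test. Chance does this in about 1 in 20 groups, and here it was met in 6 of 100 groups. Panobinostat library 1 stood high for Crabp2 at 1.74 log2 CPM (others 1.38 to 1.39). Vehicle library 1 stood high for the Rarg share of the RAR level at 11.2% (others 4.01 to 4.79%) and for Dhrs3 at 3.92 log2 CPM (others 2.68 to 2.88), and low for Tgm2 at 6.21 log2 CPM (others 6.28 to 6.30). Vehicle library 4 stood low for Aldh1a3 at 0.57 log2 CPM (others 1.16 to 1.19), and panobinostat library 3 high for Ppard at 5.81 log2 CPM (others 5.56 to 5.60).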

How the results depend on the processing

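Each of 37 named genes was refitted under up to 20 alternatives (733 values), and 23 kept their direction and their side of the threshold under all that could be run. Against a 1.5-fold change 3 of 7 members passed, where 30.9% of all tested genes did. So did 10 of 23 coregulator genes (3 higher, 7 lower) and 7 of 16 RXR partner genes (6 higher, 1 lower). Among genes, signs turned only where there was no call on either side. Quantile normalization put Cyp26b1 at -0.013, Hdac3 at 0.10 and Rarb at -0.45, and median centring put Nrip1 at -0.076 and Rarb at -0.038. Nrip1 stood at -0.22 with library weights, and Rarb at -0.022 without panobinostat libraries 3 and 4. Leaving out 1 library at a time gave -0.11 to 0.19 for Nrip1, -0.030 to 0.17 for Rarb, and -0.451 to 0.799 percentage points for the change in the Rarb share of the RAR level. The ratio differences ran from 1.90 to 2.45 (Rarg minus Rara), 1.53 to 2.00 (Rarg minus Rarb) and -1.41 to -1.19 (Rxrb minus Rxra). Their adjusted p was at most 0.0952 and above the threshold when a panobinostat library was left out, and 0.0476 when a vehicle library was. The groups stayed without overlap for these ratios in each case. With a library left out there are fewer assignments, so the exact p moves in coarser steps. Quantile normalization of the ratios, chosen after seeing the data, kept these 3 calls (1.57, 1.83 and -1.29) and put Rarb minus Rara, with no call, at -0.26. Where a call changed for another reason, the cause was not tested. Against the deposited scale, the median shift over all genes was -0.13 with quantile normalization, which moves genes unequally, -0.12 with median centring and 0.12 with scaling to read totals (log2). Members near 1 CPM, Crabp1 and Crabp2 with vehicle, are limited by depth, with 12 to 55 and 16 to 31 reads per library, and Crabp2 was not tested under the filter of 5 CPM. No paired analysis was possible because the labels number the samples 1 to 8 and the groups share no number.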
